A study of Homo sapiens with 20 samples.

Results

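The genes described here are 45 genes of protein folding and export in the endoplasmic reticulum (ER), out of 20314 genes in the deposited table of read counts. They were chosen by symbol from a fixed list of ER chaperones, translocon subunits, sensors of the unfolded protein response and coat proteins of ER export vesicles. The rule used no measured value, but the list was drawn up with earlier results of these data known. All 45 were found, 44 by their own symbol and ERO1L under the newer symbol ERO1A. All 45 also passed the filter on low counts, which 14992 genes passed.

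The cells were U2-OS, an osteosarcoma line of human origin, and RNA sequencing covered 4 groups with 5 libraries each. The groups were untreated cells, cells 90 min after irradiation (post-IR) with 20 Gy, cells 7 days post-IR, when this treatment has made such cells senescent, and non-irradiated cells with a knockdown of NFKBIA by shRNA. NFKBIA encodes IκBα, the inhibitor that holds NF-κB in the cytoplasm. The comparisons ask how the folding and export machinery stood in the acute phase, in senescence with its secretory phenotype, and when NF-κB was released without DNA damage. According to the methods, shRNA lines were selected as clones with puromycin and the inducible vectors were switched on with doxycycline. The methods give doxycycline-treated lines with a scrambled shRNA as the general control for such lines, but no library here is labelled as one. The labels name neither a vector nor doxycycline for the untreated libraries, so that vector, drug and clone cannot be told apart from the knockdown itself. All groups come from 1 cell line. No untreated cells are labelled as kept for 7 days, so that at 7 days time in culture cannot be told apart from time post-IR. The study calls the untreated and irradiated samples biological replicates, but whether they were separate cultures grown apart is not stated in the sources used here, so that p-values measure the spread between these libraries.

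Secreted and membrane proteins enter the ER through the SEC61 translocon, lose their signal peptide to signal peptidase, and are folded by chaperones, lectins and disulfide isomerases. Proteins that fail are sent back to the cytosol for degradation (ER-associated degradation, ERAD), and folded ones leave in vesicles coated with COPII. When unfolded protein builds up, the sensors IRE1 (gene ERN1), ATF6 and PERK (EIF2AK3) start the unfolded protein response, in which spliced XBP1 and cleaved ATF6 raise the transcription of many of the genes listed here.

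Library totals lay between 22535659 and 40390961 counts, and levels are given as CPM, which are counts divided by library totals that were first adjusted with TMM factors. NFKBIA (ENSG00000100906), the target of the knockdown, stood at 31.3 ± 7.25 CPM in untreated cells and at 12.1 ± 0.667 CPM in the knockdown (SD, n = 5 libraries each), with a log2 fold change of -1.36 (adjusted p = 4.87e-09). All adjusted p-values here come from the quasi-likelihood test of edgeR, adjusted over all genes by Benjamini-Hochberg. For cell type markers alone, CPM are counts divided by library totals without TMM factors. Of 7 osteosarcoma and mesenchymal markers the sum ran from 6038 to 7300.1 CPM in untreated cells, 5811 to 6041 at 90 min, 4963.5 to 5437 at 7 days and 5109 to 5408 in the knockdown. Most of it came from VIM, SPARC and COL1A1, while COL1A2 stood at only 0.122 to 0.589 CPM and ALPL at 5.89 to 55.7 CPM. The sum of 5 epithelial markers, nearly all of it from the keratin genes KRT8 and KRT18, ran from 586 to 1087 CPM in untreated cells, 745 to 901 at 90 min, 665 to 700.3 at 7 days and 649 to 715 in the knockdown. The part of these sums in the results was not tested. In every library, 4 haematopoietic markers summed to at most 2.09 CPM and 2 endothelial ones to at most 2.03 CPM. Untreated replicate 5 stood apart from the other libraries. Its SD of log2 deviations from its group mean was 0.449, against 0.125 to 0.308 in the others, and it had the lowest total. It was also the 1 untreated library in a lane shared with treated ones. Lane 2 held the other 4 untreated libraries, lane 3 held untreated replicate 5 with replicates 1 to 3 at 90 min, lane 4 held replicates 4 and 5 at 90 min with replicates 1 and 2 at 7 days, lane 5 held replicates 3 to 5 at 7 days with knockdown replicate 1, and lane 6 held knockdown replicates 2 to 5. Lane and treatment therefore cannot be told apart against untreated cells except through that library. Since RNA came from whole cultures, a shift in the kinds of cells and a shift in RNA per cell cannot be told apart.

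Among the members, untreated replicate 5 lay below the other 4 untreated libraries for 16, above them for 15 and within their range for 14. The COPII coat genes SEC31A, SEC24A and SEC24D and the ERAD ubiquitin ligase SYVN1 were the furthest above. SEC31A, the outer coat subunit, stood at 508 CPM there and at no more than 259 CPM in the others. SEC24A, a cargo adaptor, stood at 74.2 CPM against at most 35.7 CPM. CRELD2, an ER-resident isomerase, was the furthest below, at 40.2 CPM against at least 70.1 CPM. XBP1 stood at 67.5 CPM against at least 98.6 CPM. Comparisons with untreated cells are therefore given with and without this library where that matters.

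**Figure D1:**
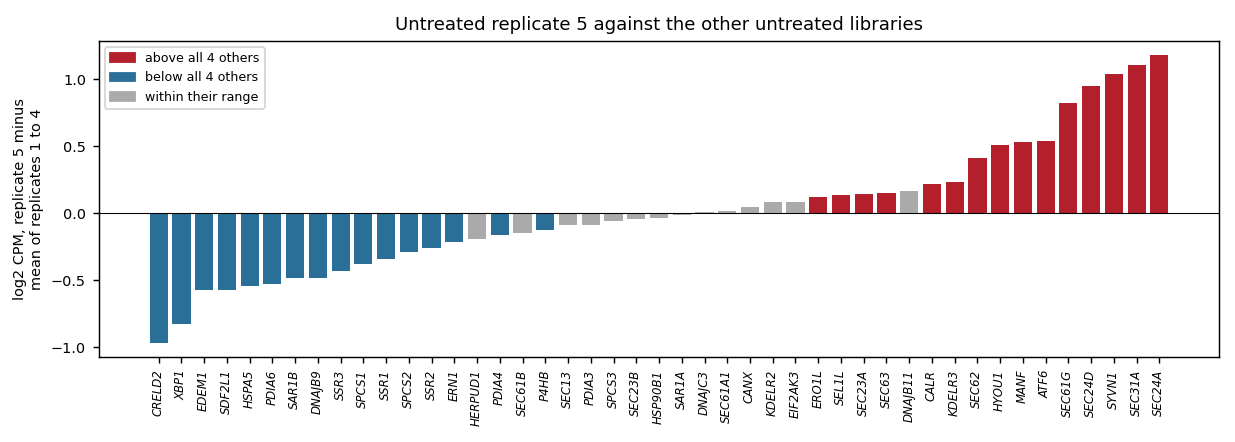
Difference in log2 CPM between untreated replicate 5 and the mean of untreated replicates 1 to 4 (y axis) for each of the 45 genes, ordered by that difference (x axis). Red bars mark 15 genes above all 4 other libraries, blue bars 16 genes below all 4 and grey bars 14 genes within their range.

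Promoter sequences are shown because the known inputs of the unfolded protein response act on short elements near the start of these genes. RefSeq promoters (GRCh38.p14, 250 bases before to 50 after each start) were found for 41 of the members, in 55 entries, and for no entry of KDELR2, PDIA3, SEC24D and SPCS1. The ER stress element ERSE was searched as CCAAT and CCACG with 9 free bases between them on either strand. It was found in 7 of the 41 member genes, or in 9 of their 55 entries. It was in 27 (0.0769%) of all 35116 promoters, which include those of the members. Whether members held more of any element than other genes was not tested. The windows below run 5′ to 3′ on the strand of the gene, and capitals mark the fixed letters of the element.
HSPA5, chr9:125241386-125241414, minus strand: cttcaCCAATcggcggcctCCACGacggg
HSP90B1, chr12:103930211-103930239, plus strand: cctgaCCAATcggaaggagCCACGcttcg
HSP90B1, chr12:103930316-103930344, plus strand: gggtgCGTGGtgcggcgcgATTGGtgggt
CALR, chr19:12938379-12938407, plus strand: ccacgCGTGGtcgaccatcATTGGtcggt
CANX, chr5:179698773-179698801, plus strand: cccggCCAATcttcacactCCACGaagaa
PDIA6, chr2:10812848-10812876, minus strand: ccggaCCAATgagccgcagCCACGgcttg
XBP1, chr22:28800598-28800626, minus strand: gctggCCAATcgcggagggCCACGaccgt
CRELD2, chr22:49918549-49918577, plus strand: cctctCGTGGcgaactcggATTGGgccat

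The shorter ERSE-II was searched as ATTGG and CCACG with 1 free base between them on either strand. It was found in 3 member genes (3 of the 55 entries) and in 19 (0.0541%) of all promoters, again with the members included. HYOU1 holds 2 copies, of which the first overlaps a TGACGTG motif.
HYOU1, chr11:119057375-119057395, minus strand: cgtgaCGTGGtCCAATcccag
HYOU1, chr11:119057269-119057289, minus strand: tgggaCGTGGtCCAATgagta
HERPUD1, chr16:56932020-56932040, plus strand: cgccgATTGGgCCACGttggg
SDF2L1, chr22:21642109-21642129, plus strand: ggaagCGTGGaCCAATcaaaa

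The core of the XBP1-type element UPRE, TGACGTG on either strand, was found in 8 member genes (9 of the 55 entries) and in 1.97% of all promoters. These genes are HYOU1, KDELR3, SEC13, SEC23A, SEC24A, SEC61A1, SEC62 and SSR3. Of them SSR3 alone was called higher at 7 days, and only its window is printed for this core. HYOU1, SEC13 and SEC23A were lower by adjusted p at 7 days.
SSR3, chr3:156554154-156554170, minus strand: acagcCACGTCAgcaag

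DNAJB9, the member with the largest change, had neither ERSE nor ERSE-II nor the TGACGTG core in its window. Its 250 bases before the start hold 1 CCAAT and 2 copies of CCACG, 1 on each strand, marked by capitals. CCAAT alone is in 34.6% and CCACG alone in 38.1% of all promoters, so that both are common.
DNAJB9, chr7:108569624-108569873, plus strand: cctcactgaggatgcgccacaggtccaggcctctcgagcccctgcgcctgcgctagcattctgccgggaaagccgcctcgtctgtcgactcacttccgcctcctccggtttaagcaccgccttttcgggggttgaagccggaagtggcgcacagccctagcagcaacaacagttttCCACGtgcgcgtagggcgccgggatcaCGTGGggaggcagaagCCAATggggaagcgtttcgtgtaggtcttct

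A match is a string of letters and was not tested for binding. Each lies before a RefSeq start, but genes can have several starts, and the windows of PDIA6, CANX, HSP90B1, CRELD2, SSR3 and DNAJB9 fall inside the span of the gene in GENCODE 29. For SSR3 the window begins 1014 bases after the first base of the gene, and only the innermost of its 3 starts has the core in its promoter.

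The highest levels in untreated cells were those of chaperones and disulfide enzymes. Per kilobase of the gene length in the deposited table, CALR stood highest at 406 ± 48.9 CPM per kb (SD, n = 5), followed by HSP90B1 at 253 ± 27.7, PDIA6 at 216 ± 39.8 and HSPA5 at 169.7 ± 30.2 CPM per kb. HSPA5, P4HB and CANX, at 161 ± 8.38 and 152 ± 9.39 CPM per kb for the latter pair, differed by less than the spread of HSPA5. The lowest 2 were ERN1 at 1.65 ± 0.19 CPM per kb and the signal peptidase subunit SPCS2 at 2.81 ± 0.35 CPM per kb. SPCS2 has 4 named pseudogenes in GENCODE 29, and reads shared with them could be lost from its count. The same holds for SAR1A, with 4, and in all 8 members have named pseudogenes.

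A call needed both an adjusted p under 0.05 and a log2 fold change over 0.5 in size, and only called genes are said to have risen or fallen. At 90 min post-IR, 1 of the 45 members rose and 0 fell, where 3.66% of all genes tested were called (2.08% higher and 1.57% lower). At an unadjusted p under 0.05, 12 members were higher and 3 lower at any size of change, and DESeq2 also called 1 higher and 0 lower. For unadjusted p and DESeq2 no share of all genes is given, here or below. Those counts of members therefore cannot be set against all genes. At 7 days post-IR, 4 members rose and 0 fell, against 31.1% of all genes called (16.7% higher and 14.4% lower). At an unadjusted p under 0.05, 20 were higher and 6 lower, and DESeq2 called 3 higher and 0 lower, again without a share of all genes. In the knockdown 0 members rose and 2 fell, against 12.7% of all genes (5.18% higher and 7.53% lower). Here 16 were higher and 7 lower at an unadjusted p under 0.05, and DESeq2 called 0 higher and 2 lower, also without such a share. At 7 days and in the knockdown the share of members called was below that of all genes, and at 90 min it was near it. In the knockdown this turned under other settings, with 42.2% of members and 40.5% of all genes past the adjusted p alone, and 31.1% and 27.3% called with sequencing lane in the model. Without untreated replicate 5, 1 member rose at 90 min (3.28% of all genes called), 2 rose at 7 days (30.6%) and 2 fell in the knockdown (11.9%), with 0 in the other direction each time. The 3 comparisons share the untreated libraries. Groups that did not overlap untreated cells were found for 5 members at 90 min, 15 at 7 days and 12 in the knockdown. Over all genes tested the shares were 12.3%, 44.8% and 24.1%. Statements of no overlap for single genes below are to be read beside these shares.

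By adjusted p alone, without a fold threshold, 20 members were higher and 5 lower at 7 days, where 32.9% of all genes were higher and 31.2% lower. In the knockdown 15 were higher and 4 lower (19.5% and 21.1% of all genes), and at 90 min 9 were higher and 1 lower (11.1% and 10.2%). Without untreated replicate 5, 23 were higher and 6 lower at 7 days (34.6% and 35.4% of all genes), 18 and 6 in the knockdown (21.7% and 26.3%), and 13 and 4 at 90 min (14.8% and 17.5%). The median log2 fold change of the members was 0.15 at 7 days, 0.053 in the knockdown and 0.022 at 90 min, against 0.012, -0.0080 and -0.026 over all genes tested. Leaving out 1 library moved these medians of the members to between 0.093 and 0.14 at 7 days, 0.026 and 0.070 in the knockdown, and 0.0069 and 0.058 at 90 min, the lowest each time without untreated replicate 3. The median size of change, without sign, was 0.17 for the members and 0.31 for all genes at 7 days, 0.15 and 0.19 in the knockdown, and 0.13 for both at 90 min. At 7 days 34 of the 45 members (75.6%) had a change above 0, against 51.1% of all genes tested. The members took 1.24% to 1.27% of all reads in the 7 days libraries, 1.14% to 1.18% in the knockdown, 1.05% to 1.10% at 90 min and 0.995% to 1.13% in untreated cells.

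**Figure D2:**
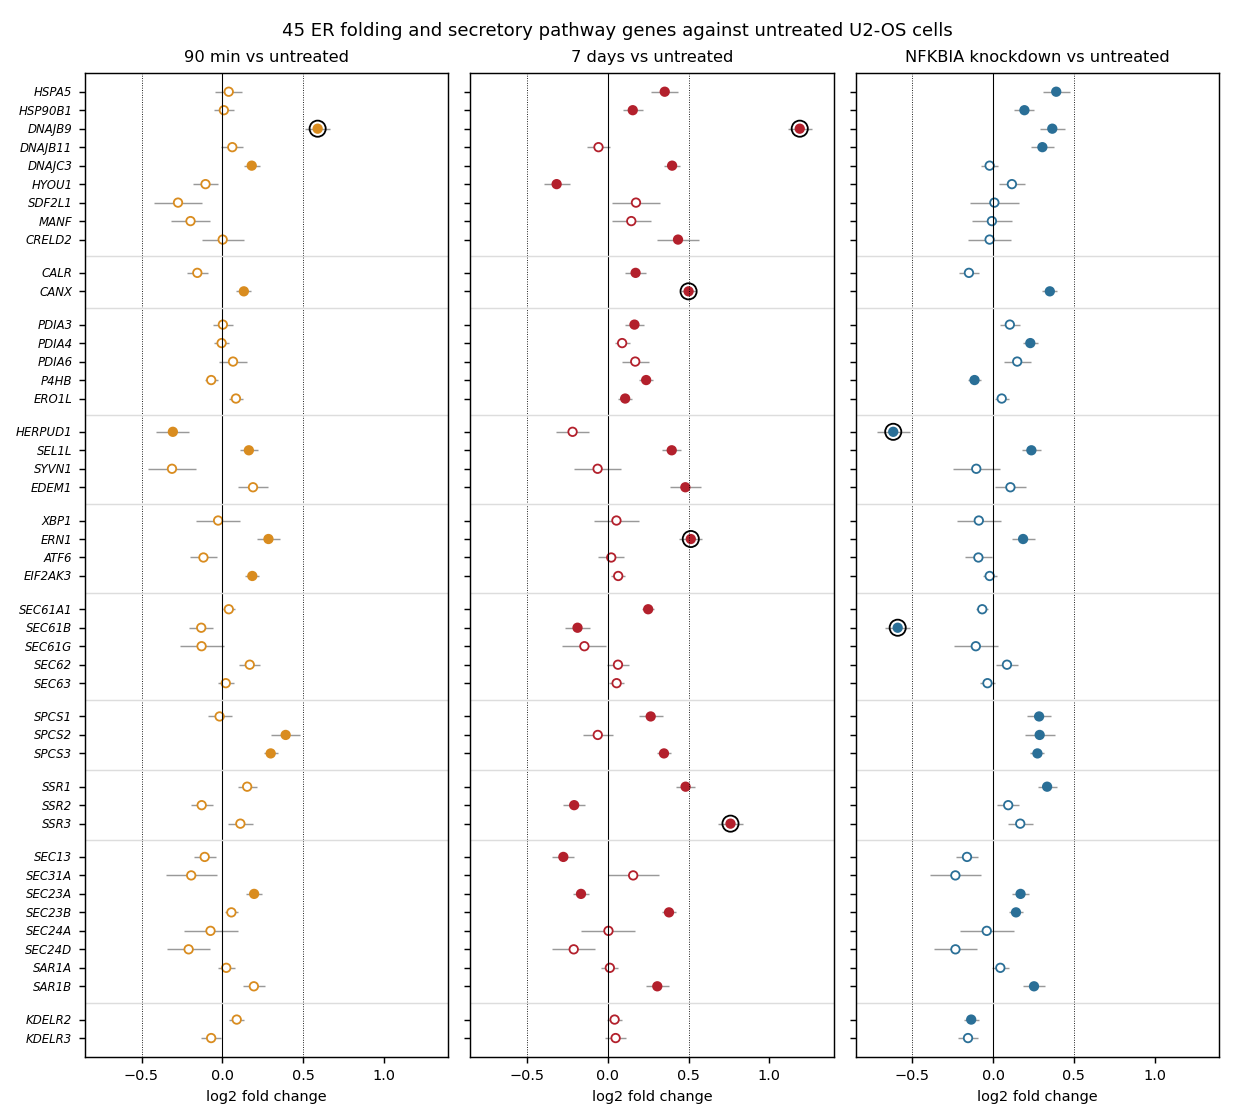
Log2 fold change (x axis) of each of the 45 genes against untreated cells at 90 min, at 7 days and in the NFKBIA knockdown, ordered by role from chaperones to KDEL receptors. Bars are standard errors, filled points have an adjusted p under 0.05, circled points are called and dotted lines mark 0.5 on either side of 0. DNAJB9 and SSR3 stand furthest right at 7 days, and HERPUD1 and SEC61B furthest left in the knockdown.

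**Figure D3:**
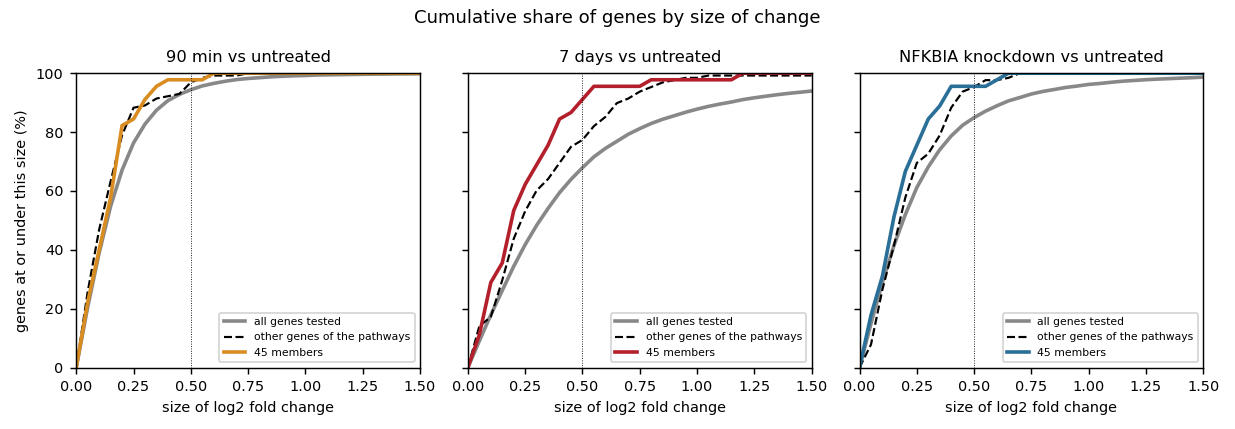
Cumulative percent of genes (y axis) at or under each size of log2 fold change (x axis), for the 45 members, other genes of the same pathways and all genes tested. At 7 days the curve of the members lies above that of all genes, since the median size was 0.17 for members and 0.31 for all genes.

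The chaperones were led by DNAJB9 (ENSG00000128590, chr7:108569568-108574850, plus strand, GRCh38), which encodes ERdj4, an HSP40 co-chaperone that partners BiP and holds IRE1 inactive. In untreated cells its level was 19.8, 18.8, 16.5, 20.3 and 13.5 CPM in replicates 1 to 5. At 90 min it was 27.4, 27.5, 27.1, 27.4 and 25.0 CPM, and at 7 days it was 40.8, 40.4, 41.5, 39.6 and 41.1 CPM. The 3 groups did not overlap, and 7 days was the highest of all. In the knockdown it was 24.0, 21.6, 22.6, 23.3 and 23.6 CPM, above every untreated library and below every library at 90 min. DNAJB9 rose by 0.59 on the log2 scale at 90 min (standard error 0.08, adjusted p = 8.91e-06) and by 1.19 at 7 days, a fold of 2.28 (standard error 0.08, adjusted p = 1.77e-11), and its change was 0.37 in the knockdown, under the fold threshold (adjusted p = 0.00066). Without untreated replicate 5, which was the lowest library for this gene, the values were 0.51, 1.09 and 0.27. From 90 min to 7 days DNAJB9 rose by 0.60 (adjusted p = 4.87e-07), and within lane 4 alone by 0.62 (adjusted p = 9.94e-07). It was also higher at 7 days than in the knockdown, by 0.82 (adjusted p = 6.15e-09). In lane 5 the 7 days replicates 3 to 5 stood at 39.6 to 41.5 CPM and knockdown replicate 1 at 24.0 CPM. Exons of DNAJB9 overlap those of THAP5 and PNPLA8 on the other strand, and the strand setting of the counting was not given in the sources used here. At 7 days THAP5 had a value of 0.14 (adjusted p = 0.271) and PNPLA8 of 0.19 (adjusted p = 0.0268). At 90 min the values were 0.24 for THAP5 (adjusted p = 0.13) and 0.36 for PNPLA8 (adjusted p = 0.000988), and neither gene was called at either time.

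HSPA5, which encodes BiP, the main HSP70 chaperone of the ER, stood at 733, 624, 681, 794 and 484 CPM in untreated cells. It stood at 857, 844, 836, 828 and 869.5 CPM at 7 days and at 871, 867, 846, 879.8 and 882 CPM in the knockdown. Both of these groups lay above every untreated library, and they overlapped each other. The log2 fold change was 0.35 at 7 days (adjusted p = 0.0009) and 0.39 in the knockdown (adjusted p = 0.000789), both under the fold threshold, and 0.24 and 0.28 without untreated replicate 5. At 90 min the level was 682 ± 20.3 CPM, within the untreated range, with a change of 0.04 (adjusted p = 0.785).

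Of the 9 chaperones and co-chaperones, 5 were higher and 1 lower by adjusted p at 7 days, where 32.9% of all genes were higher and 31.2% lower. Without untreated replicate 5 it was 4 and 1. DNAJC3, an inhibitor of PERK that also acts as an ER co-chaperone, went from 45.1 ± 2.2 to 59.5 ± 1.38 CPM (log2 fold change 0.40, adjusted p = 6.99e-07), with no overlap, and was at 44.5 ± 3.21 CPM in the knockdown. CRELD2, whose promoter holds ERSE, stood at 96.7 ± 3.42 CPM at 7 days against 71.4 ± 20.2 CPM (0.43, adjusted p = 0.00636). These groups overlapped, with untreated replicate 4 at 96.2 CPM, and without untreated replicate 5 the change was 0.27. HYOU1, an exchange factor of BiP and the holder of 2 ERSE-II copies, was the lowest of the role: it went from 186.5 ± 33.8 to 149.7 ± 3.47 CPM (-0.32, adjusted p = 0.00168, and -0.22 without untreated replicate 5). HYOU1 was at 202 ± 2.74 CPM in the knockdown (0.12, adjusted p = 0.26, but 0.21 and 0.000459 without untreated replicate 5). DNAJB11, another HSP40 co-chaperone, was higher in the knockdown at 120.3 ± 7.84 CPM than in untreated cells at 97.4 ± 10.7 CPM (0.30, adjusted p = 0.00142) and lay at 93.6 ± 3.84 CPM at 7 days. SDF2L1 and MANF, stress-inducible residents of the ER lumen, varied widely in untreated cells, from 30.8 to 64.6 CPM and from 53.0 to 104 CPM, and neither passed the test against them with all libraries (adjusted p of 0.21 or more). Without untreated replicate 5, SDF2L1 had a change of -0.38 at 90 min (adjusted p = 0.0406). HSP90B1, the HSP90 of the ER, had a change of 0.15 at 7 days (adjusted p = 0.0345, and 0.0817 without untreated replicate 5) and of 0.19 in the knockdown (adjusted p = 0.0168).

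The lectin chaperones CANX and CALR hold glycoproteins during folding, and both carry an ERSE. CANX (ENSG00000127022, chr5:179678628-179730925, plus strand, GRCh38), the membrane-bound one, stood at 1021, 907, 965, 871 and 971 CPM in untreated cells and at 1391, 1308, 1334, 1328 and 1337 CPM at 7 days. The groups were well apart. It differed by 0.50 on the log2 scale (standard error 0.05, adjusted p = 8.79e-09), right at the threshold, and 0.49 without untreated replicate 5 (adjusted p = 3.77e-09). It was 0.35 in the knockdown (adjusted p = 5.3e-06), where all 5 libraries lay above all untreated ones, and 0.13 at 90 min (adjusted p = 0.0484). CALR, the soluble one, had a change of 0.17 at 7 days (adjusted p = 0.0233) and of -0.15 in the knockdown (adjusted p = 0.0664). At 7 days it was 0.32 higher than in the knockdown (adjusted p = 0.000201), with no overlap between the 2 groups.

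The disulfide enzymes form and rearrange disulfide bonds, and 3 of 5 were higher by adjusted p at 7 days (32.9% of all genes), or 2 without untreated replicate 5. P4HB, the founding protein disulfide isomerase, went from 854.5 ± 44.4 CPM in untreated cells to 1008 ± 19.1 CPM at 7 days (0.24, adjusted p = 4.03e-05), with no overlap. In the knockdown it stood at 789 ± 10.7 CPM (-0.12, adjusted p = 0.031), so that 7 days and the knockdown differed by 0.35 (adjusted p = 2.87e-07). PDIA4 was the opposite case, with 0.09 at 7 days (adjusted p = 0.0985) and 0.23 in the knockdown (adjusted p = 0.000481). Without untreated replicate 5 it had 0.037 (adjusted p = 0.416) and 0.18 (adjusted p = 0.000742). PDIA3, the partner of the lectins, and ERO1L, the oxidase that recharges the isomerases, had changes of 0.17 and 0.11 at 7 days (adjusted p = 0.0238 and 0.0328). PDIA6, with an ERSE, had 0.17 (adjusted p = 0.0831). PDIA3 no longer passed without untreated replicate 5 (0.13, adjusted p = 0.0732), where PDIA6 was at 0.057 (adjusted p = 0.358).

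**Figure D4:**
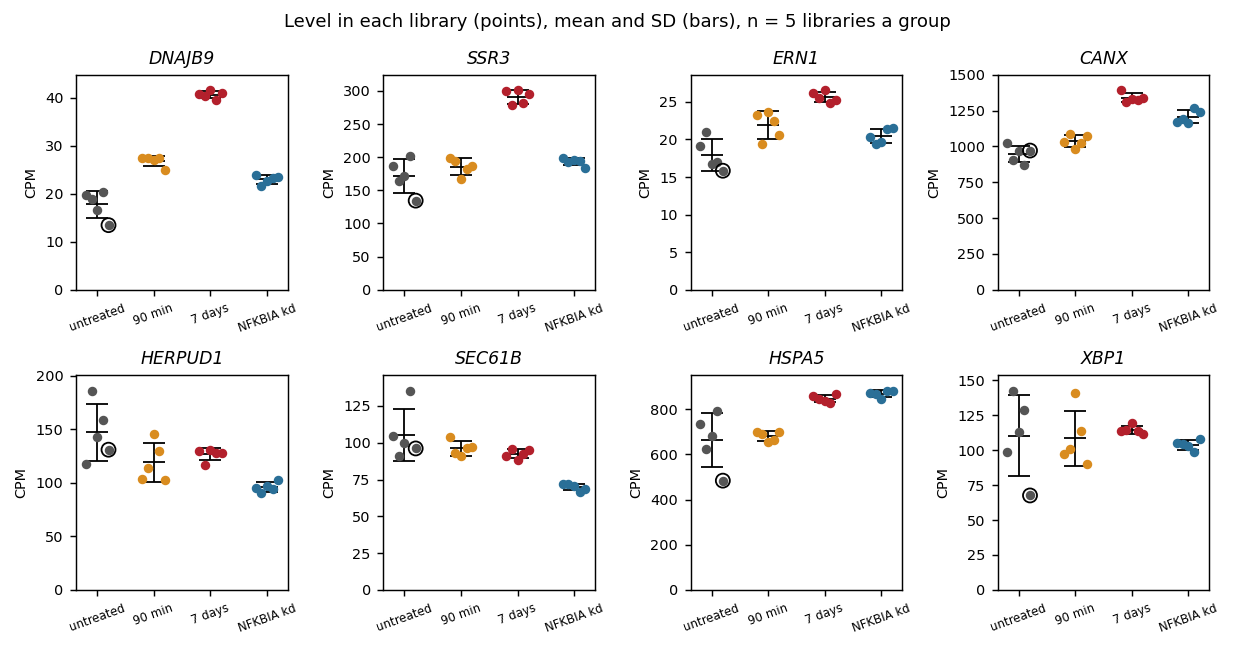
Level in CPM (y axis, from 0) of DNAJB9, SSR3, ERN1, CANX, HERPUD1, SEC61B, HSPA5 and XBP1 in each library of the 4 groups (x axis), with mean and SD as bars, and untreated replicate 5 circled. DNAJB9 rises from 17.8 CPM in untreated cells through 26.9 at 90 min to 40.7 at 7 days, while the XBP1 groups overlap except for 7 days against the knockdown.

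HERPUD1 (ENSG00000051108, chr16:56932048-56944863, plus strand, GRCh38), which encodes HERP, an ER membrane protein that organises the ERAD ligase complex, fell in the knockdown. Its level was 118, 186, 143, 158.5 and 131 CPM in untreated cells and 94.8, 90.5, 97.3, 94.1 and 103 CPM in the knockdown. Every knockdown library lay below every untreated one. On the log2 scale it fell by 0.62 (standard error 0.10, adjusted p = 6.18e-05), with a value of -0.67 without untreated replicate 5. At 7 days it was at 127 ± 5.63 CPM (-0.22, adjusted p = 0.0671, but -0.28 and 0.0195 without untreated replicate 5), and at 90 min at 119 ± 18.2 CPM (-0.31, adjusted p = 0.0372), in both cases overlapping untreated cells. HERPUD1 was 0.40 higher at 7 days than in the knockdown (adjusted p = 0.00211). With sequencing lane in the model, its change in the knockdown was -0.48 with an adjusted p of 0.268.

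The other ERAD genes did not follow HERPUD1. SEL1L, the adaptor of the ligase complex, was higher at 7 days at 243 ± 6.73 CPM than in untreated cells at 185 ± 17.2 CPM (0.40, adjusted p = 4.21e-06) and was also higher in the knockdown (0.24, adjusted p = 0.00251), with no overlap in either case. EDEM1, a lectin that extracts misfolded glycoproteins, stood at 261 ± 9.18 CPM at 7 days against 187 ± 38.6 CPM (0.48, adjusted p = 0.00017), and the change was 0.36 without untreated replicate 5. SYVN1, the ligase itself, had a change of -0.06 at 7 days (adjusted p = 0.724) with all libraries. Without untreated replicate 5, at 97.4 CPM, the change was 0.19 (adjusted p = 0.00149) and every 7 days library lay above the other 4 untreated ones.

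Of the sensors, ERN1 (ENSG00000178607, chr17:64039142-64130819, minus strand, GRCh38), which encodes IRE1α, rose at 7 days. Its level was 19.2, 21.0, 16.7, 17.0 and 15.8 CPM in untreated cells and 26.2, 25.5, 26.5, 24.9 and 25.2 CPM at 7 days. The lowest 7 days library was above the highest untreated one. Its rise was 0.51 on the log2 scale (standard error 0.07, adjusted p = 1.85e-06), and 0.45 without untreated replicate 5 (adjusted p = 3.22e-06), which is under the fold threshold. It was 0.29 at 90 min (adjusted p = 0.00618) and 0.19 in the knockdown (adjusted p = 0.0419, but 0.13 and 0.119 without untreated replicate 5).

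Its substrate XBP1, whose promoter holds an ERSE, did not pass the test without lane in the model. XBP1 stood at 98.6, 142, 113, 129 and 67.5 CPM in untreated cells and at 113.5, 114, 119, 114 and 111 CPM at 7 days. The 7 days libraries lay inside the untreated range. The log2 fold change was 0.05 at 7 days, with a 95% interval from -0.24 to 0.35 (adjusted p = 0.747), -0.03 at 90 min (adjusted p = 0.923) and -0.09 in the knockdown (adjusted p = 0.634). With sequencing lane in the model, a fit that rests on untreated replicate 5, the lowest library for XBP1, the values were 0.90 (adjusted p = 0.006), 0.74 (adjusted p = 0.00501) and 0.77 (adjusted p = 0.0632) in the same order. Counts per gene do not separate the spliced from the unspliced form. ATF6 likewise had a change of 0.02 at 7 days (interval from -0.15 to 0.19, adjusted p = 0.827), but without untreated replicate 5, its highest library at 177 CPM, the change was 0.13 (adjusted p = 0.00772), and with lane in the model it was -0.39 (adjusted p = 0.00234). EIF2AK3, which encodes PERK, was higher at 90 min at 37.9 ± 0.793 CPM than in untreated cells at 33.3 ± 2 CPM (0.19, adjusted p = 0.00423), with no overlap. At 7 days it was back at 34.8 ± 0.391 CPM (0.06, adjusted p = 0.2), lower than at 90 min by 0.12 on the log2 scale (adjusted p = 0.0201).

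In the translocon, SEC61B (ENSG00000106803, chr9:99222064-99230615, plus strand, GRCh38), which encodes the β subunit of the channel, fell in the knockdown. It stood at 105, 91.2, 99.5, 135 and 96.1 CPM in untreated cells and at 72.1, 71.8, 70.7, 66.6 and 68.4 CPM in the knockdown. The highest knockdown library was below the lowest untreated one. On the log2 scale it fell by 0.59 (standard error 0.08, adjusted p = 2.98e-06), with a value of -0.64 without untreated replicate 5. At 7 days it was -0.19 (adjusted p = 0.0362), with overlap. With sequencing lane in the model, the change in the knockdown was -0.41 with an adjusted p of 0.196. The pore subunit SEC61A1 had a change of 0.25 at 7 days (adjusted p = 9.4e-06, no overlap) and of -0.07 in the knockdown (adjusted p = 0.17). SEC61G, the γ subunit, did not pass the test in the 3 comparisons with untreated cells (adjusted p of 0.366 or more), and SEC63, which recruits BiP to the channel, had adjusted p of 0.335 or more. SEC62, its partner, differed from untreated cells only when untreated replicate 5, at 104 CPM, was left out (0.25 at 90 min, adjusted p = 4.05e-05).

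The signal peptidase subunit SPCS3 was higher in every treated group than in every untreated library. It stood at 110.2 ± 6.66 CPM in untreated cells, 136 ± 3.97 CPM at 90 min, 140.2 ± 5.02 CPM at 7 days and 133 ± 1.88 CPM in the knockdown. The changes were 0.30, 0.35 and 0.27 (adjusted p = 4.11e-05, 5.78e-07 and 4.11e-05), all under the fold threshold. SPCS1, SPCS2 and SPCS3 were all higher in the knockdown by adjusted p, where 19.5% of all genes were, with log2 fold changes from 0.27 to 0.29. The catalytic subunits SEC11A and SEC11C, which are not members, had 0.21 (adjusted p = 0.171) and 0.25 (adjusted p = 0.0234) there, and SEC11C rose at 7 days (0.61, adjusted p = 1.99e-06). SPCS1 had 0.27 at 7 days (adjusted p = 0.00369), or 0.18 without untreated replicate 5 (adjusted p = 0.0105). SPCS2 went the other way in time, at 11 ± 1.34 CPM at 90 min and 8.06 ± 0.579 CPM at 7 days, a difference of -0.45 (adjusted p = 0.000212). Its level was the lowest of all members in CPM, which are not divided by gene length.

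The translocon-associated protein (TRAP) complex, which sits beside the channel and helps the entry of some signal sequences, has 3 subunits among the members, and these differed in direction at 7 days. SSR3 (ENSG00000114850, chr3:156540140-156555184, minus strand, GRCh38), its γ subunit, with a TGACGTG core before 1 of its 3 RefSeq starts, stood at 187, 164, 172, 202 and 134 CPM in untreated cells. It stood at 300.2, 278.5, 300.6, 282 and 295 CPM at 7 days, above every other library of the study. At 90 min it was at 186 ± 12.4 CPM and in the knockdown at 193 ± 5.35 CPM, both overlapping untreated cells. The log2 fold change at 7 days was 0.76, a fold of 1.69 (standard error 0.08, adjusted p = 2.26e-08), and 0.66 without untreated replicate 5. Against 90 min it rose by 0.65 (adjusted p = 2.41e-07), within lane 4 by 0.63 (adjusted p = 4.84e-08), and against the knockdown by 0.59 (adjusted p = 1.01e-06). The α subunit SSR1 was higher by 0.48 (adjusted p = 4.45e-07), under the fold threshold, and by 0.33 in the knockdown (adjusted p = 0.000136). The β subunit SSR2 was lower by 0.21 on the log2 scale at 7 days than in untreated cells (log2 fold change -0.21, adjusted p = 0.0112), and -0.28 without untreated replicate 5, but 0.035 with sequencing lane in the model (adjusted p = 0.857). SSR2 was at 204.5 ± 3.56 CPM at 7 days and at 251.9 ± 9.44 CPM in the knockdown, groups that did not overlap (-0.30, adjusted p = 0.000738). The δ subunit SSR4, which is not a member, also rose at 7 days (0.67, adjusted p = 3.17e-08).

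**Figure D5:**
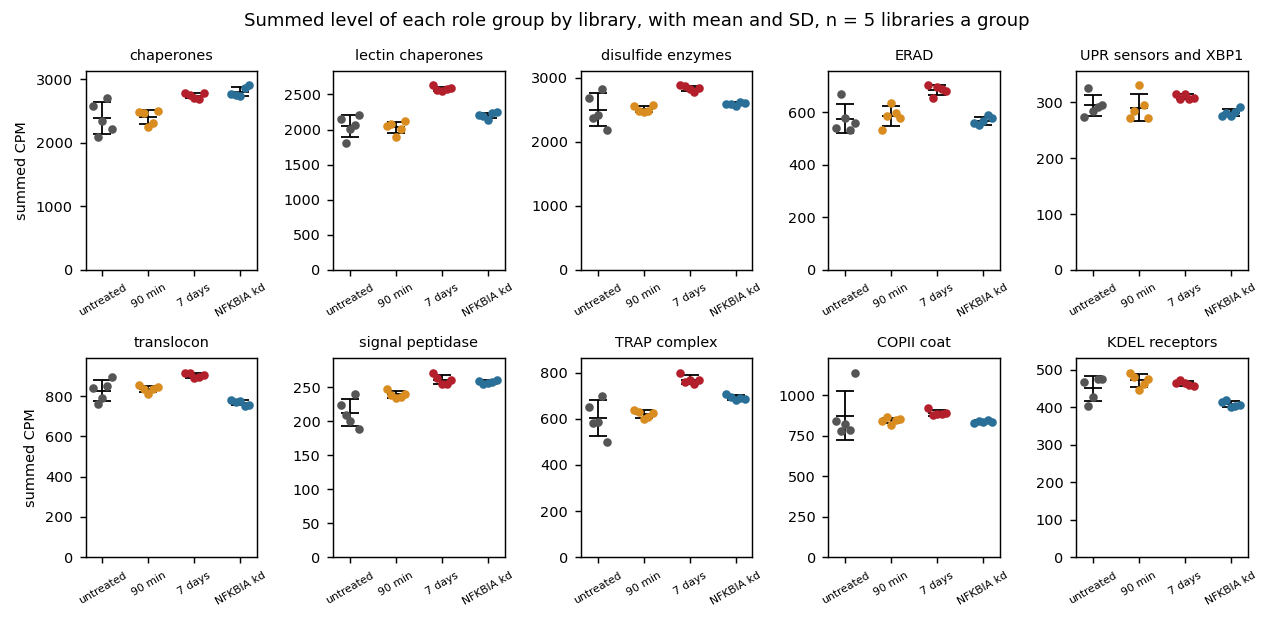
Summed CPM (y axis, from 0) of the genes of each role group in each library of the 4 groups (x axis), with mean and SD as bars. The 3 TRAP members, without SSR4, sum to 604 ± 76.5 CPM in untreated cells and 769 ± 18.7 CPM at 7 days, and 1 untreated library, replicate 5, lifts the COPII coat to 1138 CPM.

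SEC23A and SEC23B, paralogs of the inner COPII coat, differed in direction at 7 days, and neither was called. SEC23B was higher, at 56.2 ± 1.74 CPM against 43.2 ± 2.15 CPM in untreated cells (0.38, adjusted p = 1.03e-07, no overlap). SEC23A was lower, at 94.1 ± 4.04 CPM against 106 ± 8.07 CPM (-0.17, adjusted p = 0.00843), and at 90 min it was higher, at 121 ± 4.54 CPM (0.20, adjusted p = 0.00969). Between 90 min and 7 days SEC23A thus differed by -0.36 (adjusted p = 3.5e-06) and SEC23B by 0.32 (adjusted p = 1e-06), in both cases with no overlap and on libraries that do not include untreated replicate 5. SAR1B, a GTPase that starts coat assembly, was higher at 7 days (0.31, adjusted p = 0.000661) and in the knockdown (0.25, adjusted p = 0.00648), or 0.20 and 0.15 without untreated replicate 5, its lowest untreated library, while its paralog SAR1A had changes of 0.01 and 0.04 (adjusted p = 0.842 and 0.534). SAR1B exons overlap those of SEC24A on the other strand. SEC13, of the outer coat, was lower at 7 days (-0.27, adjusted p = 0.00127). The outer coat partner SEC31A had a change of 0.16 with all libraries (adjusted p = 0.398) and of 0.43 without untreated replicate 5 (adjusted p = 1.91e-06). SEC24A moved in the same way between the fits, from 0.00 (adjusted p = 0.983) to 0.30 (adjusted p = 0.000107), and SEC24D from -0.21 to 0.01 (adjusted p = 0.887 without that library).

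The KDEL receptors return escaped chaperones from the Golgi. KDELR2 had a change of 0.04 at 7 days (adjusted p = 0.437) and of -0.14 in the knockdown (adjusted p = 0.0235). KDELR3 had 0.05 (adjusted p = 0.514) and -0.16 (adjusted p = 0.054). Both were higher at 7 days than in the knockdown with no overlap, by 0.18 and 0.20 (adjusted p = 0.00245 and 0.00866).

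Set against the promoters shown, 5 of the 7 genes with an ERSE were higher by adjusted p at 7 days, 1 of them (CANX) called, with a median log2 fold change of 0.17. Of the 3 genes with an ERSE-II, none was higher and HYOU1 was lower by adjusted p at 7 days, and HERPUD1 fell in the knockdown. Of the 8 genes with a TGACGTG core, 2 were higher and 3 lower by adjusted p at 7 days. Leaving out untreated replicate 5 gave 4 higher and 0 called for ERSE, 2 lower for ERSE-II, and 4 higher and 3 lower for the TGACGTG core. For comparison, with all libraries 20 of the 45 members were higher and 5 lower, and of all genes 32.9% were higher and 31.2% lower. With so few genes per motif these counts are a description.

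Between the irradiated groups, 2 members rose from 90 min to 7 days, DNAJB9 and SSR3, and 0 fell, where 29.3% of all genes were called (16.8% higher and 12.6% lower). At an unadjusted p under 0.05, 20 were higher and 5 lower, and DESeq2 called 2 higher and 0 lower, with no share of all genes to set beside them. Between 7 days and the knockdown the same pair, DNAJB9 and SSR3, was called higher at 7 days and 0 were lower, against 25.7% of all genes called (15.8% higher and 9.89% lower). There 18 were higher and 6 lower at an unadjusted p under 0.05, and DESeq2 called 2 higher and 0 lower, again with no such share. By adjusted p alone, 19 members were higher and 5 lower at 7 days than at 90 min (32.0% and 28.9% of all genes), and 18 higher and 6 lower than in the knockdown (29.7% and 27.7%). Of the members, 30 had groups that did not overlap between 90 min and 7 days, and 27 between the knockdown and 7 days, near the 61.8% and 60.7% of all genes.

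Other genes of the same pathways were taken from a list of 130 written from general knowledge, of which 128 were tested. At 7 days 19 of them rose and 10 fell (22.7% of those tested, against 31.1% of all genes), or 17 and 5 without untreated replicate 5 (17.2% against 30.6%). In the knockdown 3 rose and 3 fell (4.69% against 12.7%), or 2 and 2 without that library (3.12% against 11.9%). At 90 min 2 rose and 0 fell (1.56% against 3.66%), or 2 and 1 without it (2.34% against 3.28%). The largest rises at 7 days were those of DDIT3, the stress transcription factor CHOP (1.56, adjusted p = 3.96e-08), PPP1R15A, the GADD34 subunit that restores translation (0.95, adjusted p = 6.52e-12), and EDEM2, a mannosidase of ERAD (0.86, adjusted p = 5.35e-10). The largest falls were those of CREB3L1, an ER-bound transcription factor (-1.0, adjusted p = 0.0053, but -0.40 without untreated replicate 5), the HSP40 gene DNAJC1 (-0.83, adjusted p = 5.12e-10) and TRAM2, a translocon-associated gene (-0.72, adjusted p = 3.81e-07). In the knockdown, TRIB3, a pseudokinase downstream of CHOP (0.69, adjusted p = 0.00461), HSPA13, an HSP70-like gene (0.55, adjusted p = 2.72e-06), and the isomerase FKBP10 (0.52, adjusted p = 2.73e-08, but 0.47 and so not called without untreated replicate 5) rose. COPZ2, a coat subunit of retrieval vesicles (-0.66, adjusted p = 1.22e-05), CREB3L2 (-0.61, adjusted p = 0.00468, and -0.35 without untreated replicate 5) and DNAJC1 (-0.54, adjusted p = 1.22e-06) fell.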

How the data were processed

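The authors deposited whole-number read counts per gene for 20 libraries, with no normalization. The submitters' processing notes name bcl2fastq, Trimmomatic, STAR 2.4.2a and hg19, and the methods name stranded mRNA libraries. The counting tool, its strand setting and the annotation are not given in the sources used here. In R 4.3.3, edgeR 4.0.16 kept 14992 genes by filterByExpr (minimum count 10) and scaled libraries by TMM. One quasi-likelihood model with a term per group was fitted to all genes and libraries, and p-values were adjusted by Benjamini-Hochberg over all genes tested. CPM are scaled counts. Totals ranged from 22535659 to 40390961.

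The members and lists were chosen with earlier results of these data known, and the pathway list was written from general knowledge. Named were HSPA5, XBP1, ERN1, ATF6 and EIF2AK3, the top 5 called members in each direction, the lowest and highest member of each role, and the 3 largest called changes per direction of the pathway list. Other members named, and SEC11A, SEC11C and SSR4 of the pathway list, were chosen after their values were seen.

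Gene positions and overlaps came from GENCODE 29 (GRCh38) by identifier, and promoters from RefSeq (GRCh38.p14). Exons of 17 members overlap those of another counted gene. The overlap is on the same strand for SYVN1 with FAU, SSR1 with CAGE1 and KDELR2 with DAGLB. The files hold no coordinates. On data simulated from the mean levels, spreads and sizes of all 20 libraries (14992 genes), 200 genes were changed at 7 days by a log2 fold change of 1. Against untreated cells edgeR recovered 200 of 200, with 3 false calls. Changes near the threshold of 0.5 were not simulated, nor was a library that stands apart. Same-numbered libraries correlated between -0.25 and 0.12 across groups, so numbers did not pair them. Alternatives were RLE or upper-quartile factors or library size alone, DESeq2 1.42.0, other filters and thresholds, only the 2 groups compared, replicate number or lane as a factor, and leaving out each library. Figures used matplotlib 3.10.9.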

Additional observations from a re-analysis of the deposited data

Results flagged for a closer look

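Of 180 sets of 5 libraries (45 genes in 4 groups), 14 held a library far from the other 4 by Dixon's test, where chance alone gives about 9. Untreated replicate 5 was that library in 6 sets, each time the highest: SYVN1 at 97.4 CPM, ATF6 at 177 CPM, SEC62 at 104 CPM, SEC31A at 508 CPM, SEC24A at 74.2 CPM and SEC24D at 74.1 CPM. The other 8 were spread over 7 libraries. At 90 min they were DNAJB9 in replicate 5 (25.0 CPM) and SEC31A in replicate 1 (243 CPM). At 7 days they were PDIA3 and SYVN1 in replicate 4 (452 and 59.6 CPM), HERPUD1 in replicate 2 (117 CPM) and SEC63 in replicate 1 (87.8 CPM). In the knockdown they were CRELD2 in replicate 5 (74.5 CPM) and SAR1B in replicate 4 (52.7 CPM).

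DNAJB9 was higher at 7 days post-IR than at 90 min by a log2 fold change of 0.60, and SSR3 by 0.65. For both, every library at 7 days lay above every library at 90 min. In that comparison 30 of the 45 members and 61.8% of all genes had groups that did not overlap. Time in culture cannot be told apart from time post-IR here.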

How the results depend on the processing

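With sequencing lane as a factor, a fit that rests on untreated replicate 5, 7 members were called higher and 8 lower at 90 min, 11 and 6 at 7 days, and 9 and 5 in the knockdown, where 25.5%, 41.3% and 27.3% of all genes were called and 33.3%, 37.8% and 31.1% of the members. The median log2 fold change was then 0.21 at 7 days. For 7 days against 90 min, joined through lane 4 and not through untreated replicate 5, it was 0.15. For 7 days against the knockdown, joined through lane 5 and so through knockdown replicate 1, it was 0.12. Single genes were followed through the settings only for some members and comparisons. Among these, the lane fit reversed XBP1 at 90 min (0.74, adjusted p = 0.00501) and in the knockdown (0.77, adjusted p = 0.0632), ATF6 (-0.39, adjusted p = 0.00234), CALR (-0.040) and SSR2 (0.035) at 7 days, and SEC23A in the knockdown (-0.0064). By adjusted p alone, 9 were higher and 1 lower at 90 min, 20 and 5 at 7 days, 15 and 4 in the knockdown, 19 and 5 for 7 days against 90 min, and 18 and 6 for 7 days against the knockdown. With a threshold of 1 on the log2 fold change 1 was higher at 7 days (DNAJB9) and 0 in every other comparison and direction. Bonferroni left 1 lower in the knockdown. Without a filter, or with only the 2 groups compared, 2 were called higher at 7 days in place of 4. The median was 0.11 in the knockdown by library size alone, and for 7 days against 90 min 0.15 with upper-quartile factors and 0.089 without a filter.

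Leaving out 1 library, with filter and TMM factors recomputed, 2 to 5 members were higher at 7 days: 2 without untreated replicate 5 or 7 days replicate 1 or 3, since ERN1 and CANX lay at the fold threshold. For 7 days against 90 min it was 2 to 3 higher and 0 to 1 lower (the 1 without replicate 4 of either group). Medians ranged from 0.0069 to 0.058 at 90 min, 0.093 to 0.14 at 7 days, 0.026 to 0.070 in the knockdown, 0.090 to 0.13 for 7 days against 90 min and 0.060 to 0.096 for 7 days against the knockdown. Among the genes of the unfolded protein response named by rule, changes near 0 turned sign within these ranges: XBP1 from -0.16 to 0.084 at 90 min, -0.098 to 0.16 at 7 days and -0.24 to 0.022 in the knockdown, ATF6 from -0.17 to 0.00087, -0.050 to 0.13 and -0.16 to 0.016 in the same order, HSPA5 at 90 min from -0.061 to 0.10 and EIF2AK3 in the knockdown from -0.077 to 0.00044. ATF6 at 7 days was also -0.015 without a filter, and EIF2AK3 in the knockdown 0.0054 by upper-quartile factors and 0.037 by library size alone. Over all members, leaving out untreated replicate 5 turned the sign of 11 at 90 min, 5 at 7 days and 8 in the knockdown, of which SEC24A (0.23 at 90 min, 0.25 in the knockdown) and SYVN1 (0.19 at 7 days, 0.15 in the knockdown) then passed the adjusted p. The cause was not tested. With the replicate number as a block, the counts were unchanged at 1, 4 and 2, and the median at 7 days was 0.16. Counting error limits SPCS2, ERN1 and DNAJB9 most, with means under 20 CPM in untreated cells.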
